A study of Drosophila montana with 9 samples.

Results

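*slmb*, *tws*, *CkIIalfa* and *dco* encode the F-box protein, the phosphatase subunit and the 2 protein kinases that act on the clock protein PERIOD. These genes were chosen by that function from the candidate gene array of *Drosophila montana*, with earlier results of these data known. They are 4 of the 108 genes of the array, with 8 of the 197 probes. The study had picked *slmb*, *CkIIalfa* and *dco* for circadian rhythm and *tws* for courtship behaviour. Whole bodies of 13 females of 1 isofemale line made up a sample, and each of 9 samples, 3 per group, had a one-colour array of its own. Diapausing females were 14 days old and had been kept in 16 h of light and 8 h of dark at 16°C. Reproducing females were of the same age and temperature and had 24 h of light. Young females were 1 day old and came from the culture in 24 h of light at 19°C. Reproductive state and light regime cannot be told apart between diapausing and reproducing females, and against young females age and temperature differ as well. In whole bodies, fewer cells of a type and less RNA per cell cannot be told apart either. The labels give the samples of a group as separate ones but not how the flies were divided among them, so that p-values measure only the spread between these samples, and every group had 1 array on each of the 3 slides.

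In *D. melanogaster*, PERIOD and TIMELESS build up, enter the nucleus and repress their own activators, and the timing of this loop is set by phosphorylation. DCO (also named DOUBLETIME), a kinase of the casein kinase 1 family, binds and phosphorylates PERIOD, and the alpha subunit of casein kinase 2 is the catalytic part of an enzyme that phosphorylates PERIOD and TIMELESS. TWS is a regulatory subunit that directs protein phosphatase 2A to PERIOD and takes phosphates off. SLMB is the substrate-binding F-box protein of a ubiquitin ligase, which recognises phosphorylated PERIOD and marks it for degradation. None of the 4 is a clock protein alone: *slmb* also acts in Hedgehog and Wingless signalling, *tws* in mitosis, *dco* in growth control and casein kinase 2 on a very large number of proteins.

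All 4 genes were found under their symbols in the RefSeq gene table of the *D. montana* assembly ASM3504440v1 (gene ID 135434609 for *slmb*, 135439555 for *CkIIalpha*, 135437103 for *tws* and 135440376 for *dco*), which places none of them on a named chromosome. The sequences are given because each value rests on 60 bases of one transcript and because some of the probes are not independent of each other. They are printed 5′ to 3′ as spotted, and capitals mark the 55 bases that *dco* probes A and B share.
slmb probe A: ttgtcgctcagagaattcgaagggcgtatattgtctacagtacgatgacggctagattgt
slmb probe B: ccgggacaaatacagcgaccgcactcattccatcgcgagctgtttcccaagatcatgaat
CkIIalfa probe A: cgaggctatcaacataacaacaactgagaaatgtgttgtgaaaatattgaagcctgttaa
CkIIalfa probe B: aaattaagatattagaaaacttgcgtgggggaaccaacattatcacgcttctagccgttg
tws probe A: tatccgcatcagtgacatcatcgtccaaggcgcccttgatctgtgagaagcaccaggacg
dco probe A: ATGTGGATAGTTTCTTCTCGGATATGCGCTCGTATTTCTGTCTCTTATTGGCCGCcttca
dco probe B: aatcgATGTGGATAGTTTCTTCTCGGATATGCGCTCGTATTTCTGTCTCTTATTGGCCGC
dco probe C: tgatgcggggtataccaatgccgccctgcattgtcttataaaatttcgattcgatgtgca

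The GC content of the probes ranged from 35% to 55%. *slmb* probes A and B, and *CkIIalfa* probes A and B, shared no run longer than 6 bases, so that each of these genes was read at 2 separate places, while the 3 probes of *dco* cover only 2 separate places. The single *tws* probe was spotted 2 times. *CkIIalfa* probe B was also spotted a second time under another name (spot C), which was not among the 197 probes. The labelled RNA of this kit is complementary to the messenger RNA, so that a probe reads the messenger only if it carries the messenger's own strand. Each of the 8 sequences has a reading frame without a stop codon on both strands, so open frames do not tell the strands apart. Translated, however, the *slmb* and *CkIIalfa* probes resemble the proteins of these families in other animals on the strand printed, whereas the *tws* probe and all 3 *dco* probes resemble a B subunit of protein phosphatase 2A and casein kinase 1 on the opposite strand. In *slmb* probe A the frame with this likeness holds a stop codon and is not the open one. The likeness was judged by eye, without a *D. montana* sequence. The *tws* and *dco* probes may therefore not read the messenger RNA of these genes, and what their signal comes from was not tested.

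The probes of *slmb* and *CkIIalfa* were well above background on all 9 arrays. The *tws* probe was so as well, counting an array where at least 1 of its 2 copies was, but its signal was low. For *dco*, no probe was well above background on diapausing replicate 42, probe B was not on diapausing replicate 43 and probe A was not on reproducing replicate 40. The background-subtracted signals of *tws* lay between 11.6 and 112.8 and those of the *dco* probes between 4.68 and 79.0, where the 95th percentile of the negative control spots was 2.98 to 14.6. Given their low signal and the strand of their probes, the values of these 2 genes are the less reliable ones.

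A pair of scales is given for each gene, because copies of one sequence at different places of a slide could differ in brightness. On the first scale, variance stabilizing normalization (VSN) was applied to the mean signal of the spots. The methods of the study name VSN but not the signal it started from, so the mean signal is a choice made here. On the second, the processed signal was used, in which the scanner software had subtracted the background and divided by a surface fitted over the array, scaled to the 75th percentile of the array. That surface ran from 0.241 to 1.93 on reproducing replicate 40, from 0.210 to 1.32 on young replicate 16 and from 0.214 to 1.28 on young replicate 17. The 2 spots of the same *CkIIalfa* sequence give an example among the members. On young replicate 16 their mean signals were 5229 (B) and 1091 (C), and on reproducing replicate 40 they were 4796 and 1596. Their processed signals on these arrays were 5402 and 4974, and 4269 and 3822. Over the 9 arrays the 2 spots differed by a median of 0.13 and at most 2.26 on the log2 scale in the mean signal, and by a median of 0.10 and at most 0.42 in the processed signal. For the 6 to 10 bright pairs of an array, with both copies well above background and over a mean signal of 300, the SD between copies had a median over arrays of 0.165 on the log2 scale in the mean signal and 0.0632 in the processed signal. Over all 28 pairs, dim ones included, the order was the other way round, with 0.163 in the mean signal and 0.361 in the processed signal. Copies were thus closer in the processed signal for bright probes only, and the *tws* and *dco* probes are dim. The mean signal was compared here before VSN and still holds the background, at which negative control spots averaged 54.1 to 68.1. This lessens log2 differences between dim spots. For dim probes these SDs therefore do not show on which of the 2 scales copies were closer.

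**Figure D1:**
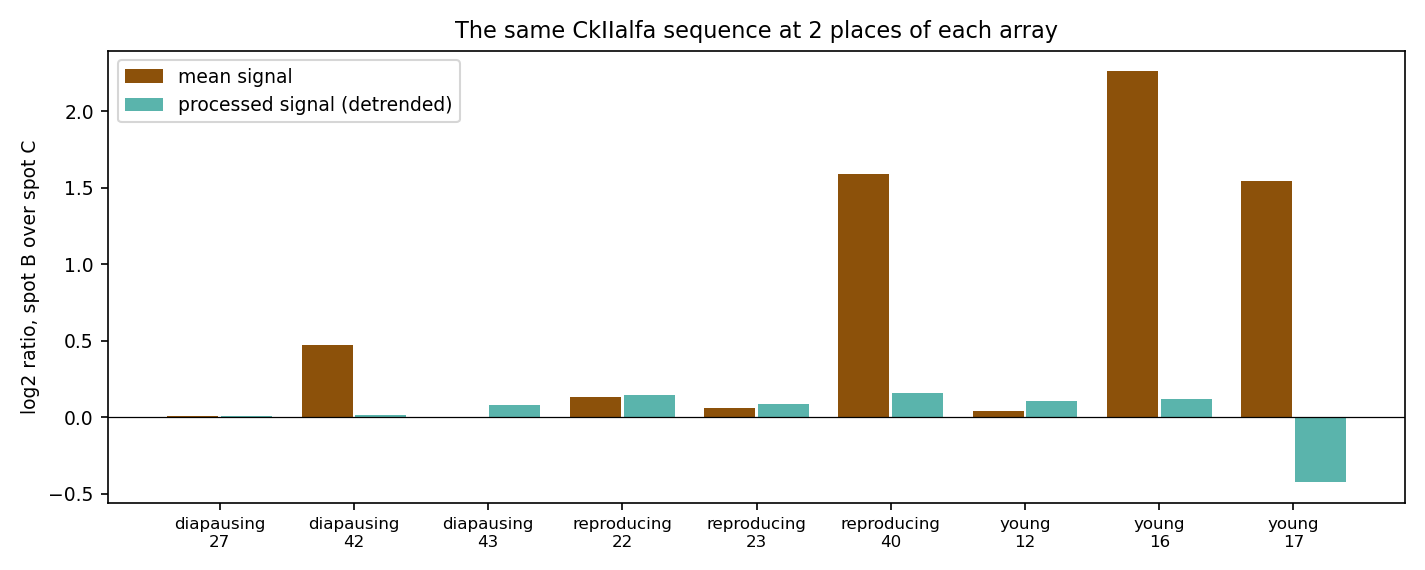
Log2 ratio of the 2 spots of the same CkIIalfa sequence (spot B over spot C) on each array, for the mean signal (brown) and the processed, spatially detrended signal (blue-green); 0 means equal spots. In the mean signal the spots differ most on young replicate 16 (2.26), reproducing replicate 40 (1.59) and young replicate 17 (1.54), in the processed signal most on young replicate 17 (-0.42); spot C of diapausing replicate 42 carried an outlier mark.

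*slmb*, the F-box gene, was lower in diapausing than in reproducing females and higher in reproducing than in young females on both scales, but passed the test only on the second one. Its VSN values were 9.60, 7.33 and 8.02 in diapausing replicates 27, 42 and 43, against 10.59, 10.11 and 9.47 in reproducing replicates 22, 23 and 40 and 8.49, 8.99 and 8.83 in young replicates 12, 16 and 17. Diapausing replicate 27 lay just above reproducing replicate 40, and the 3 reproducing samples lay above all young ones. The log2 fold change of diapausing against reproducing females was -1.74 (SE 0.55, adjusted p in limma = 0.227), which is 3.34-fold lower in diapausing females. It was not called at an adjusted p under 0.05 with a fold change over 2, where 0.926% of the 108 genes were called. Reproducing females were 2.44-fold higher than young females (log2 fold change 1.29, SE 0.55, adjusted p in limma = 0.202), where 8.33% of all genes were called. Without diapausing replicate 27, the VSN difference of diapausing and reproducing females was called (log2 fold change -2.38, adjusted p in limma = 0.0166), and without diapausing replicate 42 it was -1.25 (adjusted p in limma = 0.784). Leaving out replicate 27 raised the genes called over the whole array from 1 to 9, and those at an unadjusted p under 0.05 by limma from 9 to 26. Without replicate 42, 0 genes were called. On the 75th percentile scale, *slmb* was at -0.25, -0.94 and -0.45 in diapausing, 0.74, 0.49 and 0.90 in reproducing and -1.19, -0.91 and -0.98 in young females. The reproducing samples lay above all others, while those of diapausing and young females overlapped. The log2 fold change was -1.26 (SE 0.26, adjusted p in limma = 0.0172) in diapausing against reproducing and 1.74 (SE 0.26, adjusted p in limma = 0.00266) in reproducing against young females, and both were called, as were 9.26% and 18.5% of all genes on this scale.

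Both probes of *slmb* gave similar differences. On the VSN scale, the log2 fold changes of diapausing against reproducing females were -1.80 for probe A and -1.68 for probe B (adjusted p in limma = 0.273 and 0.345 over the 197 probes), and on the 75th percentile scale -1.32 and -1.20 (adjusted p in limma = 0.0240 and 0.0391), where 1.52% and 6.09% of all probes were called. Within each slide, diapausing females were lower than reproducing ones by 0.99, 2.78 and 1.46 on the VSN scale and by 0.99, 1.44 and 1.35 on the 75th percentile scale (log2 differences, slides 1, 2 and 3). The order of diapausing and young females was not settled. Their log2 fold change was -0.46 (SE 0.55, adjusted p in limma = 0.708) with VSN, where 1.85% of all genes were called, and 0.48 (SE 0.26, adjusted p in limma = 0.287) on the 75th percentile scale, where 7.41% were. The median of all 108 genes moved in the same way, being -0.39 and 0.32 in this comparison, so that *slmb* differed from it by only -0.07 and 0.16.

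**Figure D2:**
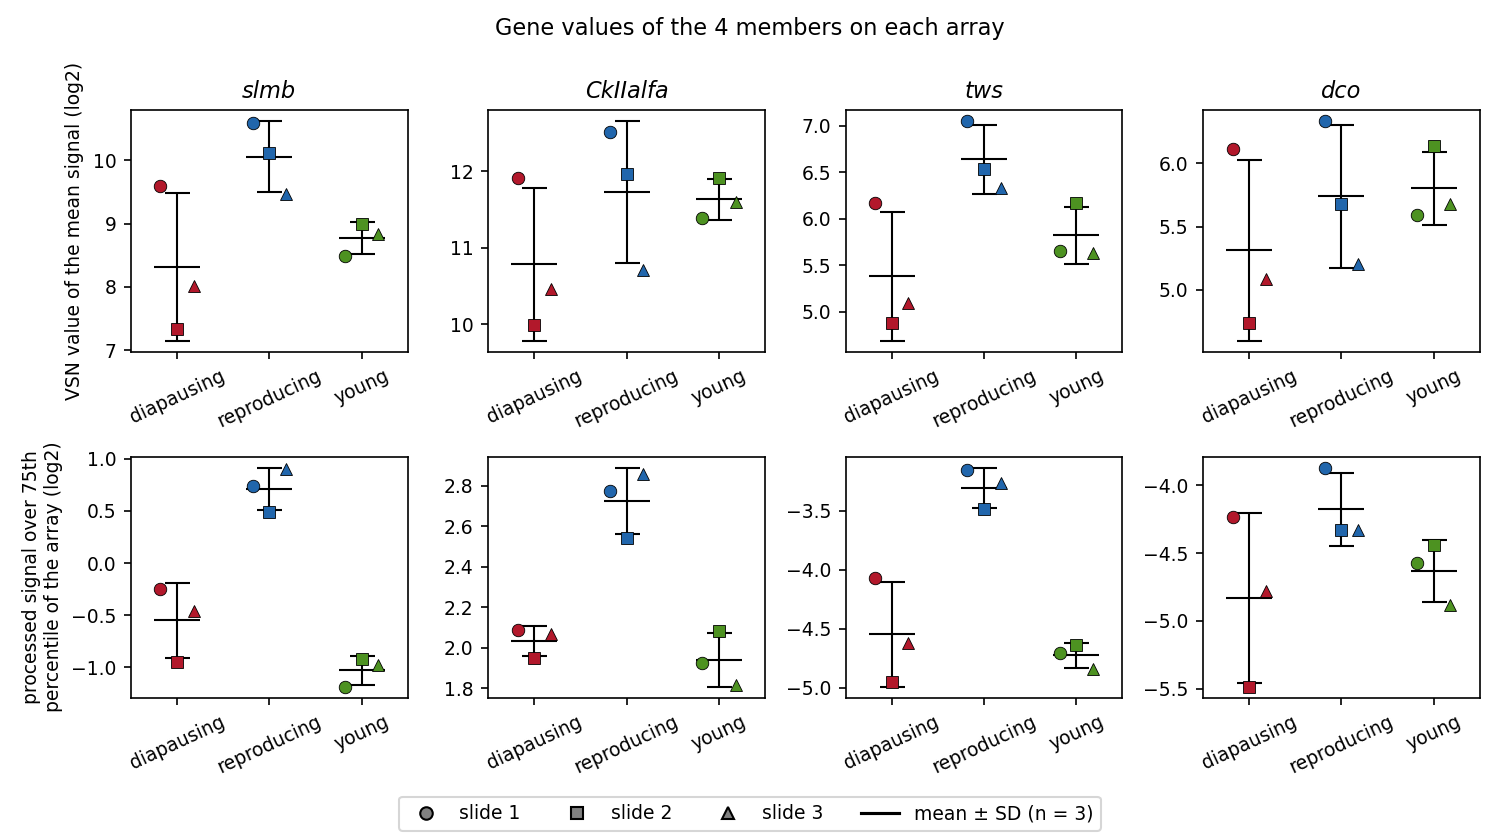
Values of slmb, CkIIalfa, tws and dco on each array (log2, probes of a gene averaged), with VSN of the mean signal above and the processed signal scaled to the 75th percentile below; symbols mark the slide and bars the mean and SD of 3 arrays. On the lower scale the 3 reproducing samples lie above all diapausing and young ones for slmb, CkIIalfa and tws, and the SD of diapausing CkIIalfa is 0.0743 there and 1.00 above.

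The signal of the single *tws* probe, named for the phosphatase subunit, had the same directions as *slmb* and was likewise called only on the 75th percentile scale. As the probe resembles the strand opposite to the messenger, its values are those of the probe and may not be levels of *tws* messenger RNA. Its VSN values were 6.17, 4.88 and 5.09 in diapausing, 7.05, 6.53 and 6.33 in reproducing and 5.66, 6.17 and 5.63 in young females. The reproducing samples were above all others on this scale, too. The mean signal, however, keeps the trend over the array. At the first copy of the probe the fitted surface was 1.15, 1.11 and 1.93 on the reproducing arrays. It was 0.836, 0.935 and 0.881 there on the diapausing and 0.996, 1.32 and 0.984 on the young arrays. At the second copy it lay between 0.909 and 1.06. The part of spot position in the VSN difference was not tested. Diapausing females were 2.39-fold lower than reproducing females (log2 fold change -1.26, SE 0.38, adjusted p in limma = 0.227), which did not pass the test. As for *slmb*, it was called without diapausing replicate 27 (-1.65, adjusted p in limma = 0.0166) and came to -1.01 without diapausing replicate 42 (adjusted p in limma = 0.784). Those fits called 9 and 0 genes over the whole array, where the fit with all arrays called 1. On the 75th percentile scale, *tws* had values of -4.07, -4.95 and -4.62 in diapausing, -3.16, -3.49 and -3.27 in reproducing and -4.70, -4.64 and -4.84 in young females. The log2 fold change of -1.24 in diapausing against reproducing females was called there (SE 0.27, adjusted p in limma = 0.0190). So was that of 1.42 in reproducing against young females (SE 0.27, adjusted p in limma = 0.00584), which was 0.82 with VSN (SE 0.38, adjusted p in limma = 0.258). Diapausing and young samples overlapped on both scales, with a log2 fold change of -0.44 (VSN) and 0.18 (75th percentile) and medians of all genes of -0.39 and 0.32. The within-slide differences of diapausing and reproducing females were -0.88, -1.65 and -1.24 with VSN and -0.92, -1.46 and -1.35 on the 75th percentile scale. The 2 copies of the probe gave processed signals of 28.3 and 60.4 on diapausing replicate 27 and of 29.7 and 52.9 on reproducing replicate 40, so that a copy alone would give a rather different level. The groups that do not overlap in *tws* with VSN compare with 5.56% of all genes that were lower in each diapausing than in each reproducing sample, and with 9.26% on the 75th percentile scale, where *slmb* and *CkIIalfa* did not overlap either. In reproducing against young females, *slmb* and *tws* lay higher without overlap with VSN, as did 5.56% of all genes, and all 4 genes on the 75th percentile scale, as did 25% of all genes.

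**Figure D3:**
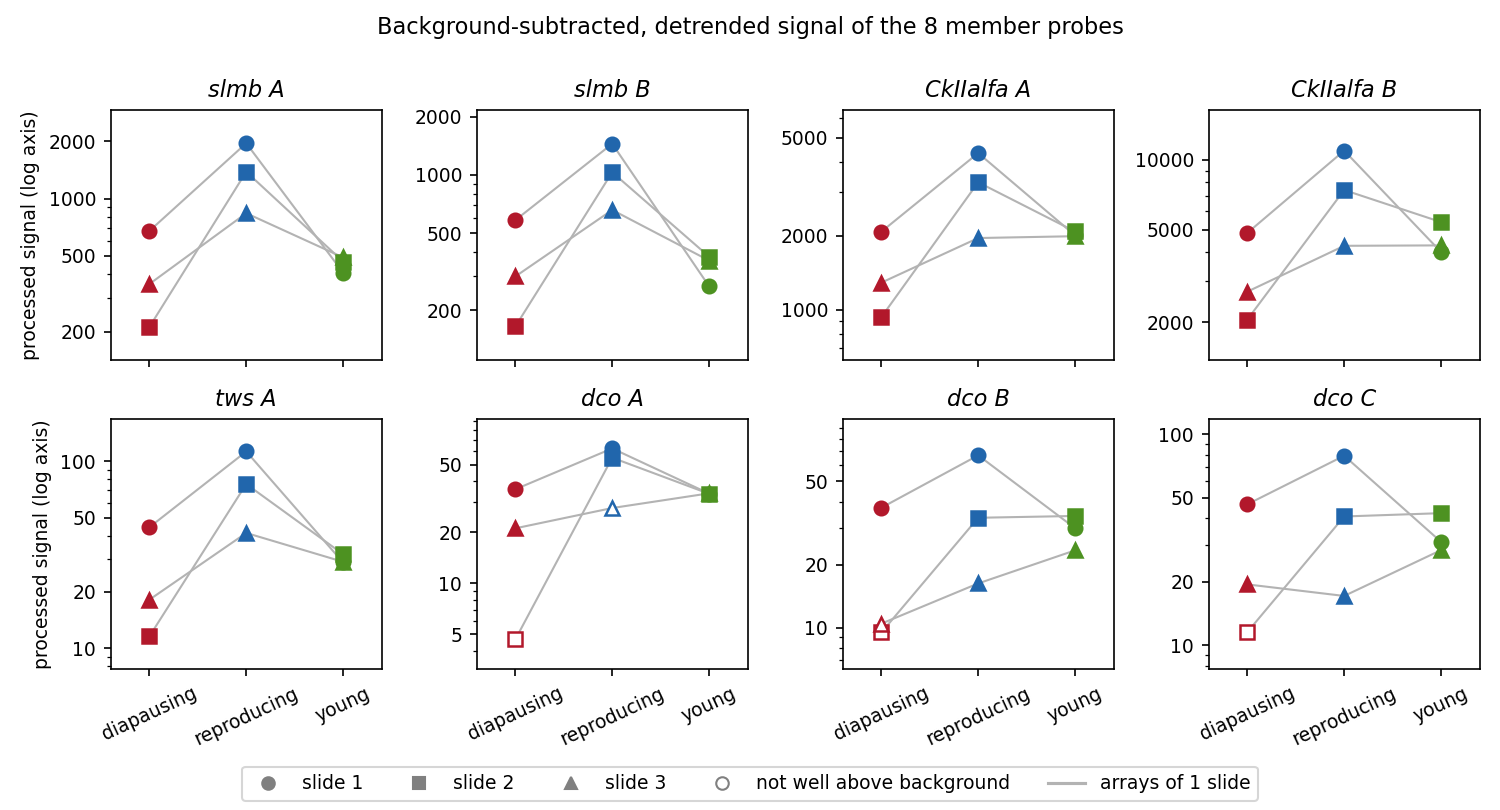
Processed signal of the 8 probes of the members in diapausing, reproducing and young females, on a log axis and not scaled between arrays; lines join the 3 arrays of a slide and open symbols mark probes that were not well above background. All probes except dco probe C are lower on the diapausing than on the reproducing array of every slide, and the open symbols occur only in dco. The median of the deposited probe values was 356, 82 and 118 on the diapausing arrays of slides 1, 2 and 3. It was 251, 215 and 238 on the reproducing ones, so that the order on slides 2 and 3 includes overall array brightness. The share of all probes with this order was not counted.

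*CkIIalfa*, the catalytic subunit of casein kinase 2, was lower in diapausing than in reproducing females by less than 2-fold on both scales and was not called. Its VSN values were 11.91, 10.00 and 10.46 in diapausing, 12.52, 11.96 and 10.71 in reproducing and 11.39, 11.91 and 11.60 in young females, and the 3 groups overlapped. On reproducing replicate 40 probe A had a VSN value of 9.43 and probe B of 11.98, where the fitted surface was 0.407 at probe A and 1.11 at probe B. The log2 fold change of diapausing against reproducing females was -0.94 (SE 0.58, adjusted p in limma = 0.644). Probes A and B gave -0.64 and -1.24 with VSN, and on slide 3 they had opposite signs (0.54 and -1.05). Within slides 1, 2 and 3 the VSN values of the gene differed by -0.61, -1.97 and -0.25. On the 75th percentile scale the values were 2.09, 1.95 and 2.07 in diapausing, 2.78, 2.54 and 2.86 in reproducing and 1.92, 2.08 and 1.82 in young females, and reproducing females lay apart from both other groups. The log2 fold change was -0.69 (SE 0.22, adjusted p in limma = 0.0760) in diapausing against reproducing females, and probes A and B gave -0.66 and -0.72. It was 0.79 in reproducing against young females (SE 0.22, adjusted p in limma = 0.0298), under the fold change of 2 needed for a call, against 0.10 with VSN (adjusted p in limma = 0.932). The 3 slides gave -0.69, -0.59 and -0.79 for diapausing against reproducing females on the 75th percentile scale. Diapausing and young females differed by 0.09 on that scale (adjusted p in limma = 0.835) and by -0.85 with VSN (SE 0.58, adjusted p in limma = 0.528).

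*dco*, the casein kinase 1, whose probes also resemble the opposite strand and may not read its messenger RNA, was not called in any comparison on either scale, and of the 4 genes it had the log2 fold change nearest to 0 between diapausing and reproducing females. Its VSN values were 6.11, 4.74 and 5.08 in diapausing, 6.33, 5.68 and 5.20 in reproducing and 5.59, 6.13 and 5.68 in young females, with a log2 fold change of -0.43 (standard error 0.42, adjusted p in limma = 0.719) for diapausing against reproducing females. On the 75th percentile scale they were -4.23, -5.49 and -4.78, -3.87, -4.33 and -4.33, and -4.57, -4.44 and -4.88 in the same order of groups, with a log2 fold change of -0.66 (standard error 0.34, adjusted p in limma = 0.216). The lowest sample on both scales was diapausing replicate 42, on which no probe was well above background. The 3 probes disagreed in size, and their order changed with the scale, although A and B share 55 of their 60 bases. On reproducing replicate 40 the fitted surface was 0.274 at probe A and 1.11 at probe B. The mean signal of probe A on that array was 53.2, under the mean of its negative control spots (57.7). With VSN the log2 fold changes of diapausing against reproducing females were -0.06 for probe A, -0.65 for probe B and -0.57 for probe C. On the 75th percentile scale they were -1.08, -0.60 and -0.30. Probe A differed there by -0.37, -2.31 and -0.56 on slides 1, 2 and 3, and slide 2 holds diapausing replicate 42. On slide 3, probe C was 0.02 higher in diapausing than in reproducing females on the 75th percentile scale. Diapausing females were at -0.49 (VSN) and -0.20 (75th percentile) against young females, and reproducing females at -0.06 and 0.45 (adjusted p in limma between 0.345 and 0.936 for these 4 values).

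Set against the rest of the array, the 4 genes were all below the median of the 108 genes in diapausing against reproducing females, with the values of *tws* and *dco* under the limit of strand given above. As the genes were chosen with earlier results of these data known, their place among all genes is a description and no independent test. Their own median log2 fold change was -1.10 (VSN), where that of all genes was -0.01, and -0.97 on the 75th percentile scale, where it was 0.27. With VSN, 2 genes of the array had a lower fold change than *slmb*, 4 a lower one than *tws*, 8 a lower one than *CkIIalfa* and 26 a lower one than *dco*. At an unadjusted p under 0.05, *slmb* and *tws* were lower in diapausing females with VSN, where 4.63% of all genes were, and *slmb*, *tws* and *CkIIalfa* on the 75th percentile scale, where 8.33% were. In reproducing against young females the medians were 0.46 for the 4 genes and -0.14 for all genes with VSN, and 1.10 and 0.10 on the 75th percentile scale. In diapausing against young females they were -0.47 and -0.39, and 0.14 and 0.32. These 3 comparisons share their arrays. The difference between a gene and the median of all genes moved less with the processing than the fold change itself: over 28 other fits it lay between -2.18 and -1.30 for *slmb*, -1.57 and -0.71 for *tws*, -1.30 and -0.57 for *CkIIalfa* and -1.08 and -0.15 for *dco* in diapausing against reproducing females. Several of these fits cannot move that difference. They are those without a fold change minimum, with slide as a block, with the 2 compared groups alone and without a young array.

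**Figure D4:**
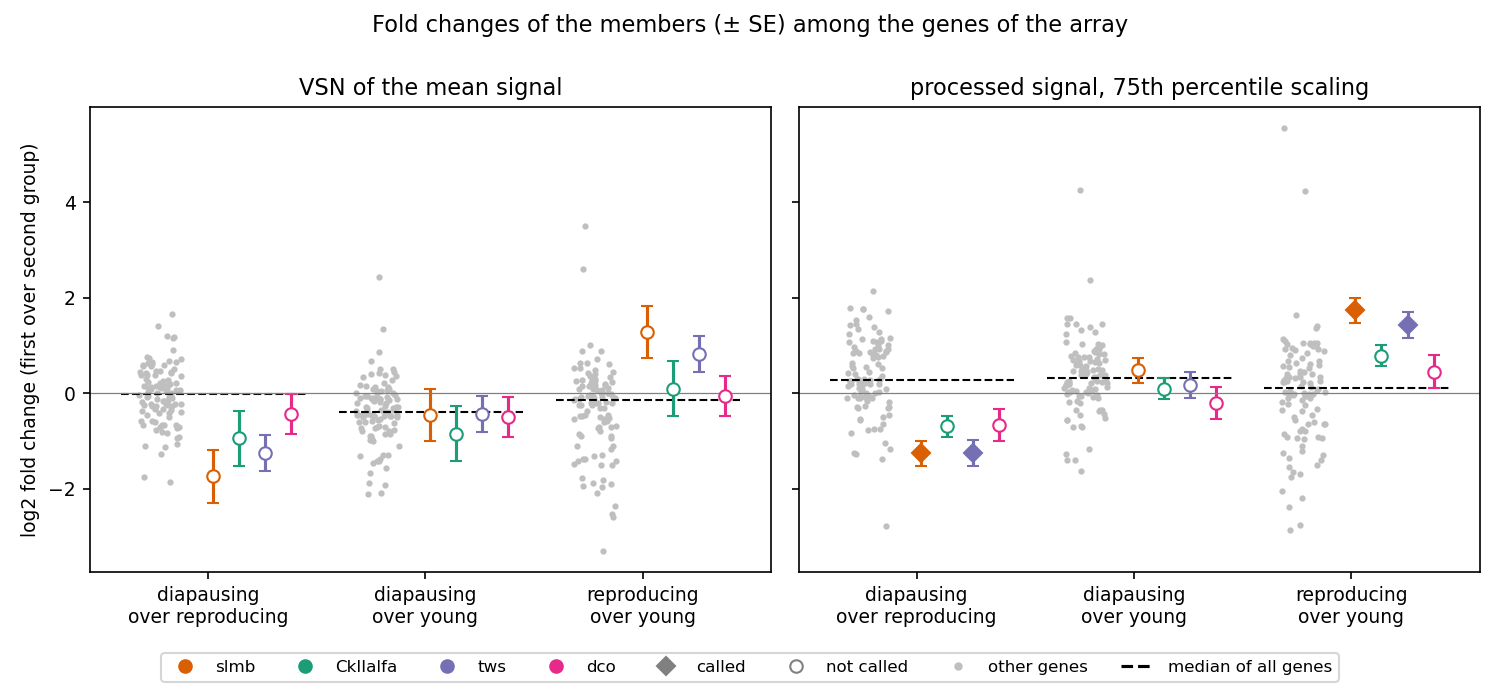
Log2 fold changes (first over second group) of the members with their SE, next to those of the other 104 genes (grey), with VSN of the mean signal on the left and the processed signal scaled to the 75th percentile on the right; the dashed line is the median of all 108 genes and filled diamonds were called. The members lie below the dashed line in diapausing over reproducing females, and slmb and tws are called in 2 comparisons on the right and in none on the left.

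**Figure D5:**
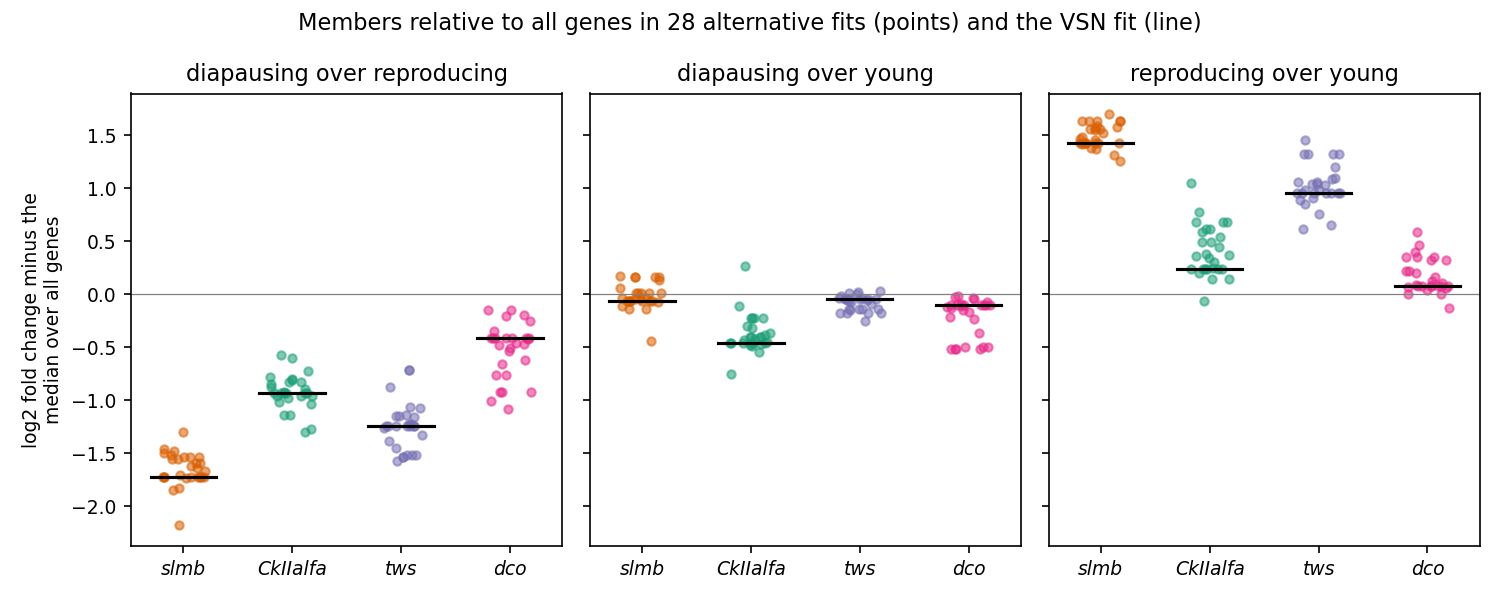
Log2 fold change of each member minus the median over all genes in the VSN fit (line) and in 28 other fits (points). They change the normalization, the probes, the arrays or the test, are not independent of each other, and some cannot move the fold change of a comparison. In diapausing over reproducing females all points of the 4 genes lie below 0, and in reproducing over young females those of slmb and tws lie above 0.

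Genes that the 4 proteins act with were counted next to them. Of 7 clock partners, the transcription factors and repressors *per*, *tim*, *Clk*, *vri* and *disco*, the kinase gene *sgg* and the RNA-binding gene *lark*, none was called between diapausing and reproducing females on either scale, but *tim* and *disco* were well above background on no array. The other 5 had a median log2 fold change of 0.15 with VSN and 0.24 on the 75th percentile scale, next to -0.05 and 0.30 for the 88 genes with a probe well above background on at least 1 array of both groups. *per*, the substrate gene, had a log2 fold change of 0.24 (standard error 0.24, adjusted p in limma = 0.719) with VSN and 0.86 (SE 0.34, adjusted p in limma = 0.129) on the 75th percentile scale. For *tim*, whose protein pairs with PERIOD, and for *disco* no fold change is therefore given. *Clk*, which encodes an activator of *per* and *tim*, had 0.37 and 0.92 (adjusted p in limma = 0.644 and 0.0786), and was well above background on 3 diapausing arrays but on only 1 reproducing array. *vri*, a repressor of *Clk*, had 0.15 and -0.09, and *sgg*, the kinase that phosphorylates TIMELESS, -0.13 and 0.24 (adjusted p in limma between 0.624 and 0.855). In reproducing against young females *Clk* was lower (-0.95, SE 0.30, adjusted p in limma = 0.0402, under 2-fold) on the 75th percentile scale and did not pass with VSN (-0.74, adjusted p in limma = 0.138). *vri* and *lark* were called as higher on the 75th percentile scale (adjusted p in limma = 0.0298 and 0.0402). For *vri*, however, no young array had a probe well above background, and the bound that this leaves is under 1, so no fold is given. *lark*, named after its value was seen, had log2 fold changes of 1.04 in this comparison and of -0.56 in diapausing against reproducing females (-0.92 with VSN), the same directions as the 4 genes. The RNA was from whole bodies, in which clock neurons are few.

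Of the 10 other kinase genes on the array, which include *sgg*, *CaMKII* had the lowest log2 fold change in diapausing against reproducing females on both scales (-1.27 and -0.75). None of the 10 was called in this comparison, and the medians of the 8 that were well above background in both groups were -0.16 and 0.11. Of the 23 other genes that were selected for circadian rhythm, 0 were called with VSN (0 also at an unadjusted p under 0.05 by limma) and 1 was called as higher on the 75th percentile scale (*Slob*, a potassium channel partner, at 1.54). The 15 of them that were well above background in both groups had medians of 0.11 and 0.52. The 7 housekeeping genes had medians of -0.26 and 0.30, and on the 75th percentile scale 1 of them, *Gapdh1*, a glycolytic gene named after its value was seen, was called as higher in diapausing females (1.43, adjusted p in limma = 0.00835).

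Genes with maternal or ovarian transcripts in *D. melanogaster* lay in the same direction as the members. All 7 of that list, which includes *lark*, were below 0 in diapausing against reproducing females with VSN, although none was called, and 6 of 7 on the 75th percentile scale. Of all 108 genes, 54 were below 0 with VSN and 35 on the 75th percentile scale. Without *Fmr1*, the medians of the list were -0.93 and -0.60. The summed level of the list on that scale, in units of the 75th percentile of the array, was 2.63 to 4.48 in diapausing, 5.26 to 5.73 in reproducing and 2.24 to 2.87 in young females. *Hsp26* was not well above background in young females and *Fmr1* was not in diapausing females. The part of ovarian RNA in the differences of the 4 genes was not tested. Summed photoreceptor genes were at 97.0 to 142.5, 15.0 to 91.2 and 76.2 to 91.1 in the same groups, and the lowest of the reproducing samples was replicate 40. Without that array the calls of *slmb* and *tws* on the 75th percentile scale held, with log2 fold changes of -1.17 and -1.22 in diapausing against reproducing females (adjusted p in limma = 0.0312 and 0.0336). That fit called 15 of the 108 genes. Summed neuronal genes, of which *para* and *syt* were well above background in no group and *na* only in young females, were at 0.123 to 0.210, 0.0908 to 0.118 and 0.159 to 0.214. In the photoreceptor list, *inaC* and *trp* were not well above background in reproducing females.

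The profiles of *slmb* and *tws* over the 9 arrays had a Pearson correlation of 0.97 on both scales, and each was the gene most like the other among those with a probe well above background on all 9 arrays. With VSN, the next were *Hsp83*, a chaperone gene, and *FKBP59*, an immunophilin gene (0.95 and 0.93 for *slmb*, 0.92 and 0.93 for *tws*). *CkIIalfa* was most like the mitochondrial chaperone gene *Hsc70-5* (0.98), *Hsc70Cb* (0.97) and *eIF-4a* (0.97) with VSN, but most like *slmb* (0.96), *tws* (0.96) and *FKBP59* (0.94) on the 75th percentile scale. *dco* was most like *eIF-4a* (0.97), *CkIIalfa* (0.96) and *CrebB17A* (0.94) with VSN, and like *Hop* (0.85), *Hsc70Cb* (0.84) and *tws* (0.79) on the 75th percentile scale. The points of each correlation share the overall brightness of their array and the position of the spots on it.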

How the data were processed

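Labelled RNA of 9 samples was hybridized to a custom one-colour array with 236 spots for 208 experimental probes. The authors deposited the scanner output, processed with Feature Extraction, with the intensity of each spot as mean, local background and processed signal. The file headers give 9.5.1.1 as the version of the grid placement. They also deposited a value table for 197 probes, on a linear intensity scale, whose scaling is not stated. It correlated with the processed signal of the same array at 0.998 or more (log2), except for reproducing replicate 40 (0.916). Groups were read from abbreviations in the sample titles. Here spots with an outlier mark (4 experimental ones over all arrays) were dropped, copies were averaged and VSN was written anew from its published model and fitted to the 197 probes with the spike-in spots (trimming quantile 0.5). The methods of the study name VSN with spike-in controls but not the signal column, and the mean signal was chosen here. Log2 values of the probes of each gene were averaged and tested with limma 3.58.1 in R 4.3.3 over all 9 arrays, with Benjamini-Hochberg adjustment over 108 genes or 197 probes. Genes counted as called had an adjusted p under 0.05 together with more than a 2-fold change. The scripts were tested on simulated data. Alternatives were 13 listed at the start, 6 added after seeing the data (those with the processed signal in VSN, housekeeping scaling, the scaled deposited table and pairs of choices) and each of the 9 arrays left out. Between 120 and 147 of the 197 probes were well above background on an array, and the number of arrays limits the precision. The 4 genes and all lists were chosen with earlier results of these data known. Other genes were named by lists of clock partners, kinases, circadian, housekeeping and marker genes, and by the 3 highest correlations with each member.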

Additional observations from a re-analysis of the deposited data

How the results depend on the processing

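No paired analysis was possible by replicate number, because the groups share none, but every slide held 1 array of each group and can pair them. Slide as a block called 0, 0 and 4 genes (diapausing against reproducing, diapausing against young, reproducing against young), where VSN called 1, 2 and 9. In the same order of comparisons, the counts were 0, 0 and 8 with VSN fitted on spike-ins alone, 10, 8 and 20 with the processed signal on the 75th percentile scale, 8, 7 and 18 with slide as a block added to it, 7, 4 and 14 with housekeeping scaling and 14, 16 and 18 with the deposited table on the 75th percentile scale. They were 5, 2 and 12 with normexp background correction and the 75th percentile, 4, 0 and 12 with normexp and quantile normalization, 1, 6 and 8 with the deposited table, 1, 5 and 12 with a trimming quantile of 0.9, 2, 5 and 9 with the brightest probe, 0, 2 and 8 without dim probes and 0, 0 and 5 with the 2 compared groups alone. With single arrays left out they ranged over 0 to 9, 0 to 6 and 3 to 13, and without reproducing replicate 40 they were 15, 12 and 18 with the processed signal and 12, 18 and 19 with the deposited table, both on the 75th percentile scale.

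*slmb* was called in diapausing against reproducing females with the processed signal (-1.26, also with slide as a block), normexp and the 75th percentile (-1.22), normexp and quantiles (-1.46), housekeeping scaling (-1.91) and the scaled deposited table (-1.09), and in reproducing against young females with the same alternatives (1.74, 1.60, 1.60, 1.71 and 1.56). *tws* was called with the processed signal (-1.24 and 1.42, also with slide as a block) and housekeeping scaling (-1.89 and 1.39), and normexp with the 75th percentile gave -0.45 in diapausing against reproducing females. *CkIIalfa* was called with housekeeping scaling in diapausing against reproducing females (-1.34) and with normexp and quantiles in reproducing against young females (1.08), where spike-ins alone gave -0.0045. With arrays left out, *slmb* ranged over -2.38 to -1.25 and 1.02 to 1.58 in these 2 comparisons, *tws* over -1.65 to -1.01 and 0.61 to 0.99, and *CkIIalfa* over -0.30 to 0.61 in reproducing against young females. Without reproducing replicate 40, *slmb* was called at -1.17 and 1.64 with the processed signal and at -1.14 and 1.61 with the deposited table, and *tws* at -1.22 and 1.40, and -1.09 and 1.36 (75th percentile scale).

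The sign against young females depended on the scaling. In diapausing against young females *slmb* was above 0 with the processed signal (0.48), normexp (0.38 and 0.14) and the scaled deposited table (0.47), *CkIIalfa* with the same (0.095, 0.0018, 0.27 and 0.048), *tws* with the processed signal (0.18), normexp with the 75th percentile (0.32) and the scaled deposited table (0.27), and *dco* with normexp and the 75th percentile (0.27). With arrays left out *slmb* ranged over -1.10 to 0.037. Without reproducing replicate 40, the processed signal and the scaled deposited table gave the values above. *dco* in reproducing against young females changed sign with the processed signal (0.45), normexp (0.22 and 0.022), the deposited table (0.22, scaled 0.25), VSN of the processed signal (0.028), housekeeping scaling (0.43) and the brightest probe (0.13), and ranged over -0.36 to 0.20 with arrays left out, with 0.53 (processed signal) and 0.51 (scaled deposited table) without reproducing replicate 40. In diapausing against reproducing females it was 0.050 with normexp and the 75th percentile.

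Among single probes, against young females in diapausing ones, *slmb* probe A turned to 0.39, 0.30 and 0.051, *slmb* probe B to 0.57, 0.46 and 0.23 and *CkIIalfa* probe A to 0.10, 0.046 and 0.26 (processed signal, normexp with the 75th percentile, normexp with quantiles), *CkIIalfa* probe B to 0.086 and 0.29 (processed signal, normexp with quantiles), *dco* probe C to 0.075 and 0.28 (processed signal, normexp with the 75th percentile), and *dco* probes A and B to 0.28 and 0.26 (normexp with the 75th percentile). In reproducing against young females *CkIIalfa* probe A turned to 0.76, 0.27, 0.63 and 0.40 (the same 3 and the deposited table) and *dco* probe A to 0.61, 0.057 and 0.34 (processed signal, normexp with the 75th percentile, deposited table). *dco* probe A in diapausing against reproducing females turned to 0.23, 0.055 and 0.070 (normexp with the 75th percentile, normexp with quantiles, outlier spots kept). With arrays left out, *slmb* probe B ranged over -1.02 to 0.14 in diapausing against young females, *dco* probe A over -0.52 to 0.35 in diapausing against reproducing females, and in reproducing against young females *CkIIalfa* probe A ranged over -0.67 to 0.55, *dco* probe A over -0.86 to 0.013, *dco* probe B over -0.091 to 0.29 and *dco* probe C over -0.14 to 0.35. The causes were not tested.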
